A study of Caenorhabditis elegans with 2 samples.

Results

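The 8 alpha and beta tubulin genes examined here were tba-1, tba-2, tba-4 and mec-12, which encode alpha-tubulins, and tbb-1, tbb-2, tbb-4 and mec-7, which encode beta-tubulins. They were chosen by symbol from the 19973 nuclear protein-coding genes of the worm, with peaks of these data already known, so their peaks are described and not tested. Chromatin immunoprecipitation with sequencing had mapped ZFP-2, a zinc finger protein, in whole Caenorhabditis elegans hermaphrodites of strain OP534, which carries the unc-119(tm4063) mutation and the integrated transgene wgIs534. The transgene supplies ZFP-2 with a C-terminal GFP-FLAG tag, and an anti-GFP antibody pulled it down from L4 larvae taken 52 hours after starved L1 larvae were released. Both libraries, biological replicates 1 and 2, belong to this single group, so no treatment, genotype or stage was contrasted, and the whole animal mixes tissues. The peak lists held 18200 and 17770 calls for replicates 1 and 2 and 14658 for the pooled replicates, with background calls included, and 660 calls after thresholding. Read depth is unknown, and the linked control was not used here.

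Microtubules are hollow polymers of alpha- and beta-tubulin dimers that form the mitotic spindle, the tracks of kinesin and dynein motors and the core of cilia. Worms make their tubulins from a small family of isotype genes. As background, tba-1, tba-2, tbb-1 and tbb-2 supply the early embryo and many other cells, and tba-4 is also broadly expressed. By contrast, mec-12 and mec-7 build the wide microtubules of the touch receptor neurons, and tbb-4 is used in ciliated sensory neurons. These 5 broadly expressed and 3 neuronal isotypes are set beside each other below.

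ZFP-2 peaks were very unequal among the tubulin genes. tba-2 carried 1 of the strongest peaks of the genome, with a pooled signal of 2381, and tbb-1 carried a much weaker thresholded peak, with a signal of 89.8. The other 6 genes had no thresholded summit in their window, which ran from 1000 bp upstream of the 5′ ends to the gene end. Thus 2 of 5 broadly expressed and 0 of 3 neuronal isotypes had a thresholded summit, against 3.29% of all protein-coding genes. Among the 660 strongest peaks of each replicate alone, tba-2 and tbb-1 were again the 2 members with a summit, against 3.31% of all genes in replicate 1 and 3.30% in replicate 2. Among the stronger 330 thresholded peaks the count was 1, tba-2, against 1.75% of all genes. With each summit given to the nearest 5′ end it was also tba-2 alone, against 2.26% of all genes. With so few genes, these counts describe the family and were not tested. The broadly expressed genes all lie on autosomes, whereas mec-7 and tbb-4 lie on chromosome X. Expression group and chromosome therefore cannot be fully told apart.

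Sequence is shown for 4 members, all read from the RefSeq WBcel235 genome on the strand of the gene. In tbb-1 and tbb-2 the strongest pooled summit lay upstream, and mec-12 and mec-7 are touch neuron isotypes. Of these members only tbb-1 had a thresholded summit. The weak replicate 1 call of mec-7 had its summit 192 bp upstream, inside the window shown. For tbb-1 (chrIII:10742562-10742762, minus strand) and tbb-2 (chrIII:4018174-4018374, minus strand) the 201 bases are centred on the strongest pooled summit, whose base is the single capital. For mec-12 (chrIII:3139235-3139484, minus strand) and mec-7 (chrX:7776690-7776939, minus strand) the 250 bases end just before the 5′ end. Capitals there mark ACGCAG in mec-12, and in mec-7 the reverse complement of AATGCAT.
tbb-1: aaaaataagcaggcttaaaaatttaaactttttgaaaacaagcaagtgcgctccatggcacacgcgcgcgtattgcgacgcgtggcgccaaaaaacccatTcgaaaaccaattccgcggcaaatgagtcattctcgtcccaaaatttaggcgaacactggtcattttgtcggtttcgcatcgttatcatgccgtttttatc
tbb-2: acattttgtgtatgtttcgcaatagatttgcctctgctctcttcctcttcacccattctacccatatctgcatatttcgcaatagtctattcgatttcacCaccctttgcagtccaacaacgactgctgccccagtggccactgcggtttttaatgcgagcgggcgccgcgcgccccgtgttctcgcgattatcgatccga
mec-12: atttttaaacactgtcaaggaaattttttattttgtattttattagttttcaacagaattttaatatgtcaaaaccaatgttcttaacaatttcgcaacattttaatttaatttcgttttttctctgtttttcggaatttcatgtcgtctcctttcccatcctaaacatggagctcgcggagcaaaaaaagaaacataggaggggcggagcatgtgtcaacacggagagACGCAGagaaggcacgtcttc
mec-7: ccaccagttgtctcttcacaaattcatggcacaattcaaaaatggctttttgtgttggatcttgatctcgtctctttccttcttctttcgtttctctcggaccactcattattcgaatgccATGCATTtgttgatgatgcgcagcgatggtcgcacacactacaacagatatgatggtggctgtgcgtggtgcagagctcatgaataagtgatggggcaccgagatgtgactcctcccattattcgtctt

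The alpha-tubulin gene tba-2 (WBGene00006529) lies on chromosome I from 12964674 to 12966795 on the minus strand. Its thresholded peak ran from 12966648 to 12967212, and the summit at 12966935 stood in the sequence between tba-2 and the 3′ end of pbs-2, a proteasome subunit gene read in the same direction. The signal of this peak, a value of the authors' peak caller whose scale is not stated and that is used to rank peaks within a list, was 2381 in the pooled list. In replicate 1 the signal was 1102 and in replicate 2 it was 1288. Ranks were 16 of 14658 in the pooled list, 15 in replicate 1 and 14 in replicate 2, so both replicates placed this site near the top of their list. Among nuclear peaks alone the rank was 10 in the pooled list, 8 in replicate 1 and 11 in replicate 2. Just 18 genes, 0.0901% of all, had a pooled summit at least as strong in their window, tba-2 included.

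The tba-2 summit stood at nearly the same base in both replicates. Summits of replicates 1 and 2 each stood 1 bp from the pooled summit, at 12966936 and 12966934. tba-2 has 2 annotated transcripts with different 5′ ends, C47B2.3.2 and C47B2.3.1. The summit lay 140 bp upstream of the outer 5′ end and 664 bp upstream of the inner one. No other protein-coding gene had this summit in its window, which sets tba-2 apart from tbb-1, whose summit was shared with a neighbour. The remaining calls in the tba-2 window were weak, with signals of at most 20.7 in replicate 1 and of 22.3 in replicate 2, and none of them was in the pooled list.

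The genes whose strongest promoter summit stood closest to that of tba-2 in rank, summed over the pooled and both replicate lists, were F09G2.2, attf-2 and vig-1. F09G2.2 and attf-2 share 1 summit, ranked 13, 16 and 12 in the pooled, replicate 1 and replicate 2 lists. vig-1 was ranked 17, 19 and 13 in the same lists. The summed rank difference from tba-2 was 6 in each case. This likeness is over 3 lists, of which the pooled list holds the reads of the other two.

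The beta-tubulin gene tbb-1 (WBGene00006536) lies on chromosome III from 10740868 to 10742432 on the minus strand and faces rib-2, which encodes a heparan sulfate glycosyltransferase. Their 5′ ends are 378 bp apart. The thresholded peak, from 10742444 to 10742879, had its summit at 10742662 between them, 230 bp upstream of tbb-1 and 148 bp upstream of rib-2. Its pooled signal of 89.8 ranked 567 of 14658, near the weak end of the 660 thresholded peaks, whose lowest signal was 83.8. The first pooled peak outside the thresholded list had a signal of 83.7.

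In replicate 1 the tbb-1 signal was 46.2, rank 444, with its summit on the same base as in the pooled list. In replicate 2 the signal was 50.9, rank 619, and the summit stood 120 bp away, 350 bp upstream of tbb-1 and 28 bp upstream of rib-2. Both replicates thus held a call in this shared promoter at a similar strength, but its place within the promoter differed. A second, overlapping pooled call had its summit at 10742861, 51 bp inside rib-2, with a signal of 43.7. The peak therefore cannot be assigned to tbb-1 rather than rib-2 from these lists.

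**Figure D1:**
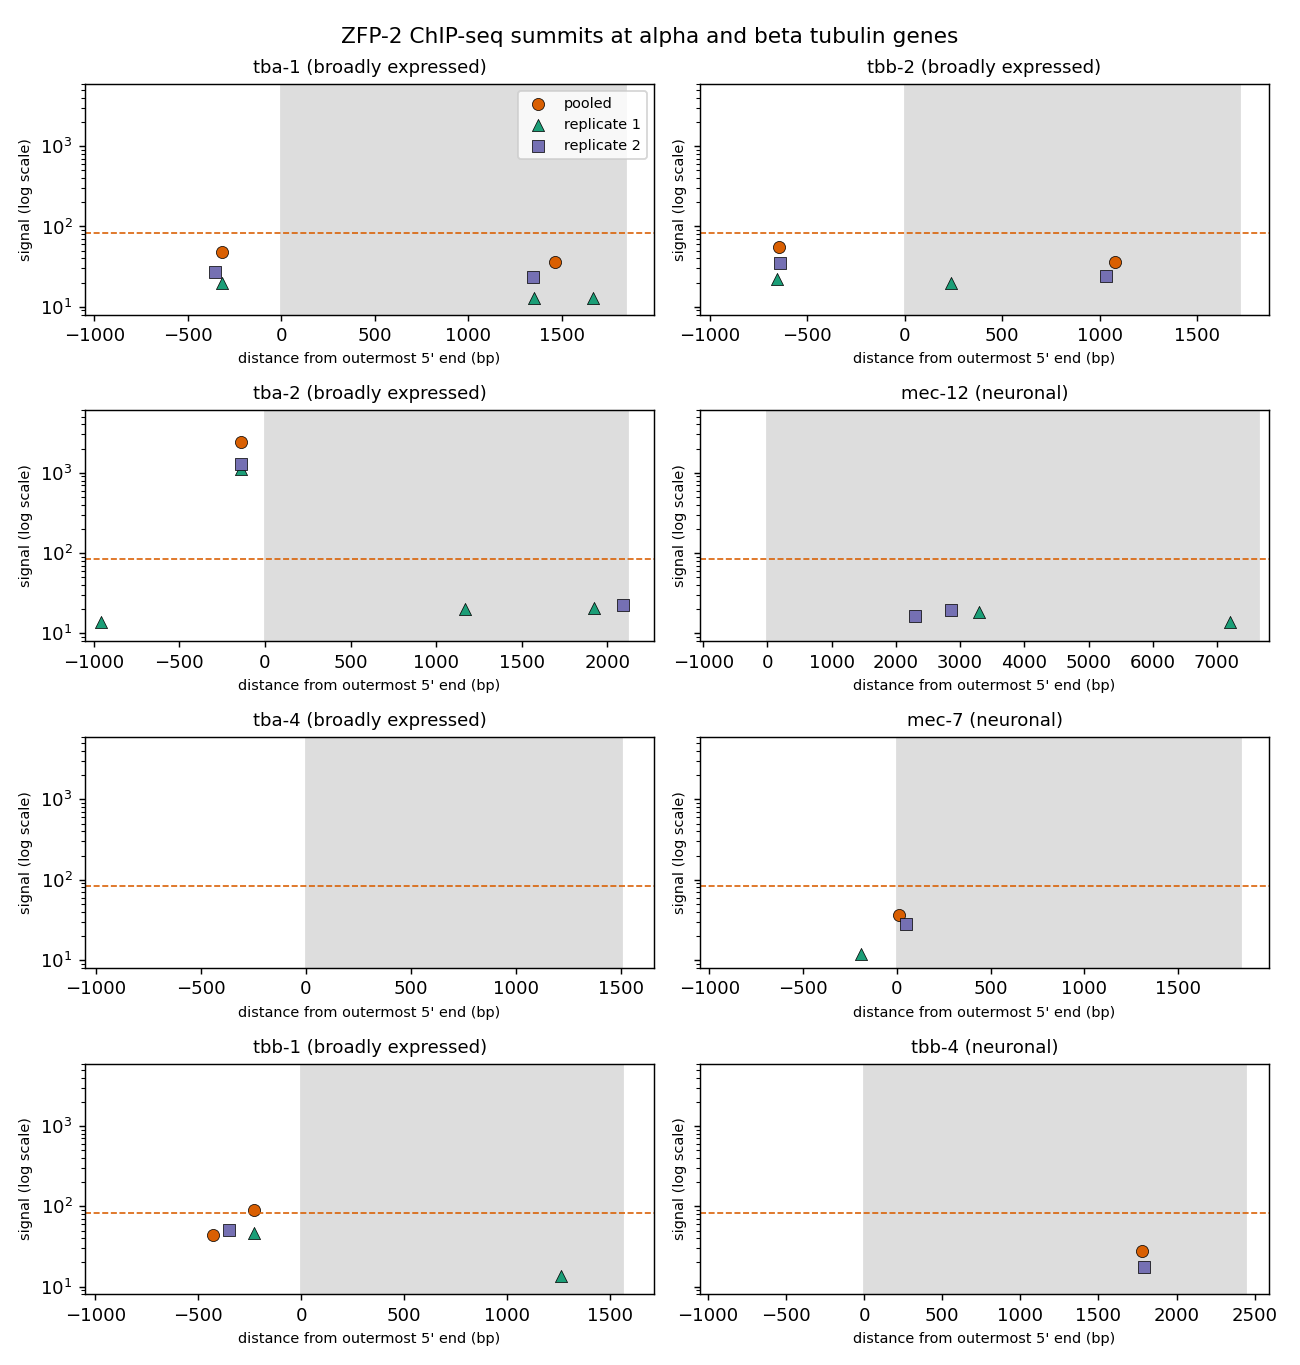
Signal of every ZFP-2 summit (log scale) against its distance in bp from the outermost 5′ end of each tubulin gene, with negative values upstream, the gene shaded grey and a symbol for each list. The dashed line is the weakest thresholded signal, 83.8, which applies to the pooled list. The strongest tba-2 summit stands above 1000 in the pooled and both replicate lists. tbb-1 has 1 pooled summit just over the line at 89.8, and the other pooled summits lie under it.

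The other broadly expressed isotypes had weak upstream calls or none. tbb-2 (WBGene00006537, chromosome III, 4015910 to 4017627, minus strand), a beta-tubulin that works beside tbb-1 in the embryo, had a pooled call upstream with its summit at 4018274 and a signal of 55.5, rank 1571. The deposited −log10 q-value of this call was 1.53, against 1.96 for each of the 660 thresholded peaks. In replicate 1 its signal was 22.1 (rank 2897) and in replicate 2 it was 35.0 (rank 1545), both with summits 9 bp from the pooled one. These summits stood 638 to 656 bp upstream of tbb-2 and inside C36E8.10, a noncoding RNA gene from 4018117 to 4018305. A second pooled call inside a tbb-2 exon had a signal of 36.0.

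tba-1 (WBGene00006528, chromosome I, 9785781 to 9787624, minus strand), the alpha-tubulin that overlaps in embryonic function with tba-2, had its strongest pooled summit at 9787939, 315 bp upstream. Its signal was 47.8, rank 2242, in the pooled list. Replicate 1 gave 19.6 (rank 4324) and replicate 2 gave 26.7 (rank 3468). In each list this summit was also in the window of cox-5B, a cytochrome c oxidase subunit gene that faces tba-1. The pooled summit stood 786 bp upstream of cox-5B. A second pooled call, inside a tba-1 exon, had a signal of 36.0 and was shared with the drsh-1 window. A thresholded peak did stand beyond the tba-1 window. Its summit, with signal 253 and rank 99, was 1089 bp upstream of tba-1 but 12 bp upstream of cox-5B. That peak reached 17 bp into the tba-1 window.

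tba-4 (WBGene00006530, chromosome II, 10918706 to 10920211, plus strand) had 0 summits in any of the lists, background calls included. Its nearest thresholded summit was 49.7 kb away. Among the broadly expressed alpha-tubulin genes, the strongest pooled signal thus ran from 2381 at tba-2 through 47.8 at tba-1 to no call at tba-4.

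The neuronal isotypes had weak calls that did not recur within 100 bp in both replicates. mec-7 (WBGene00003171, chromosome X, 7774856 to 7776689, minus strand) had a single pooled summit, 11 bp inside the gene, with a signal of 36.6 and rank 4893. In replicate 2 the call had a signal of 28.0, rank 2980. In replicate 1 the call of this gene had a signal of 11.99, rank 17512 of 18200, and its summit lay 203 bp from the pooled one. This is close to the weakest call of that list.

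mec-12 (WBGene00003175, chromosome III, 3131574 to 3139234, minus strand) had 0 pooled summits. It is the longest of these genes, at 7661 bp, and each replicate had 2 calls in its introns. The stronger had a signal of 18.3 in replicate 1 (rank 5428) and 19.7 in replicate 2 (rank 8931), at summits 3301 and 2862 bp from the 5′ end, so the replicates did not mark the same place. The nearest thresholded summit was 71.1 kb away. tbb-4 (WBGene00006538, chromosome X, 9434452 to 9436893, minus strand) had a single pooled call in an exon, 1780 bp from the 5′ end, with a signal of 28.1 and rank 10854. Replicate 2 had it with a signal of 17.6 (rank 12382), and replicate 1 had 0 summits in the tbb-4 window.

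Counted with background calls, 6 of 8 members had a pooled summit, against 40.5% of all protein-coding genes, which were 4 of 5 broadly expressed and 2 of 3 neuronal isotypes. In replicate 1 the count was 6 of 8, against 46.3% of genes, and in replicate 2 it was 7 of 8, against 46.4%. A call in these longer lists was thus common among all protein-coding genes. Windows had a median of 2839 bp among the members and 3027 bp among all genes. A position within 100 bp in both replicates was seen for 3 of the 6 strongest pooled summits, those of tba-1, tba-2 and tbb-2. For tbb-1, mec-7 and tbb-4 it was seen in 1 replicate. With 50 bp allowed the count for both replicates was also 3, and with 200 bp it was 4, adding tbb-1. How often the summits of other genes recur in this way was not counted, so these counts only describe the members.

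By the strongest call of each gene, tba-2 came first, tbb-1 came next and tbb-2 after it in the pooled list and in each replicate. Below these the order was not shared. In replicate 1 tba-1 stood above mec-12 and mec-7, whereas in replicate 2 mec-7 stood above tba-1 and mec-12. The difference between tba-1 and mec-7 therefore did not hold up across replicates.

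**Figure D2:**
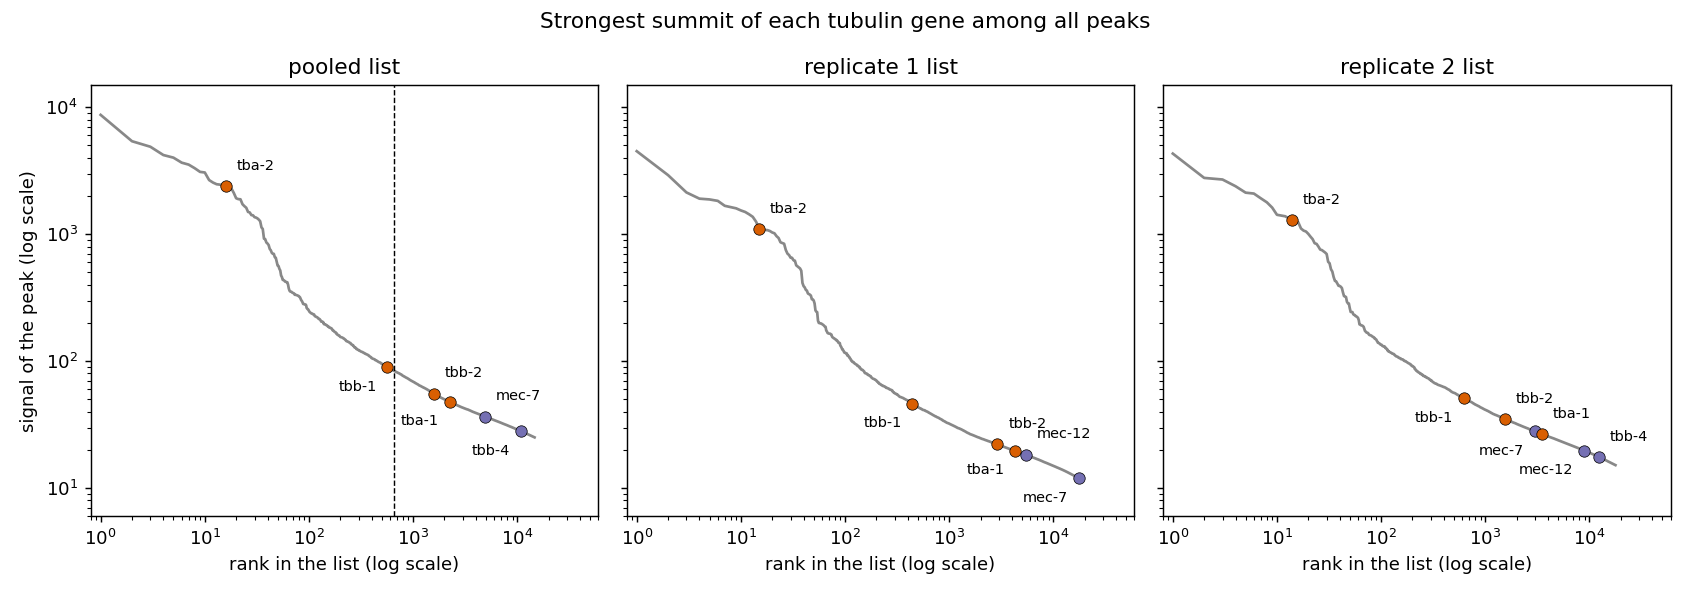
Signal of each peak against its rank, both on log scales, for the pooled list and each replicate list (grey line), with the strongest summit of each tubulin gene as a point, orange for broadly expressed and purple for neuronal isotypes. The dashed line at rank 660 ends the thresholded set in the pooled list. tba-2 stands on the steep upper part at rank 16, 15 and 14, tbb-1 at rank 567, 444 and 619, and the other members lie on the long weak tail.

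Short sequence words were then searched at these sites. ACGCAG, a word already known to be frequent at the ZFP-2 summits of these data, was sought with TATAAA, a core promoter word, with AATGCAT (part of the site bound by UNC-86 and MEC-3 in touch neurons) and with the X-box of RFX factors in cilium genes. Each was searched on both strands, and no 2 matches overlapped in the windows of the members. In the 201 bases around the strongest pooled summit, none of the 4 was found at any of the 6 members that had such a summit, tba-2 included. ACGCAG was in 167 of the 642 windows around nuclear thresholded summits (26.0%) and in 7.23% of the 250-base windows upstream of all protein-coding genes. Of the 642 summit windows, 12.3% held TATAAA, 2.34% AATGCAT and 0.156% the X-box. At these shares, finding none in 6 windows says little. Among the 6, only tba-2 and tbb-1 had a thresholded summit. In the upstream windows of the members ACGCAG stood once, at mec-12, where no pooled call lay, as the sequence above shows. The bases from 21 to 16 upstream of the mec-12 5′ end held it.

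AATGCAT stood in the upstream window of mec-7, 129 to 123 bases before its 5′ end, and in 3.56% of such windows over all genes. An X-box match stood upstream of tbb-4, 233 to 220 bases before its 5′ end, and in 0.971% of all upstream windows. TATAAA stood once upstream of tba-1 and once upstream of tba-4, and in 35.2% of all. A match describes letters and does not show that a factor is bound.

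Base composition at the tubulin summits was within the usual range of ZFP-2 peaks. G and C made up 42.3% of the bases at the tba-2 summit, 44.3% at tbb-1 and 50.7% at tbb-2. Nuclear thresholded summits had 46.0% ± 7.10 (SD over 642 summits), and the tba-2 and tbb-1 values lay within 1 SD of that mean. Upstream windows had 33.8% ± 5.91 (SD over 19973 genes). Among members the upstream values ran from 27.6% at tbb-2 to 48.4% at tbb-4, and the neuronal genes mec-7 (45.6%) and tbb-4 had the highest values, while the third neuronal gene, mec-12, had 35.2%, close to the mean of all genes.

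**Figure D3:**
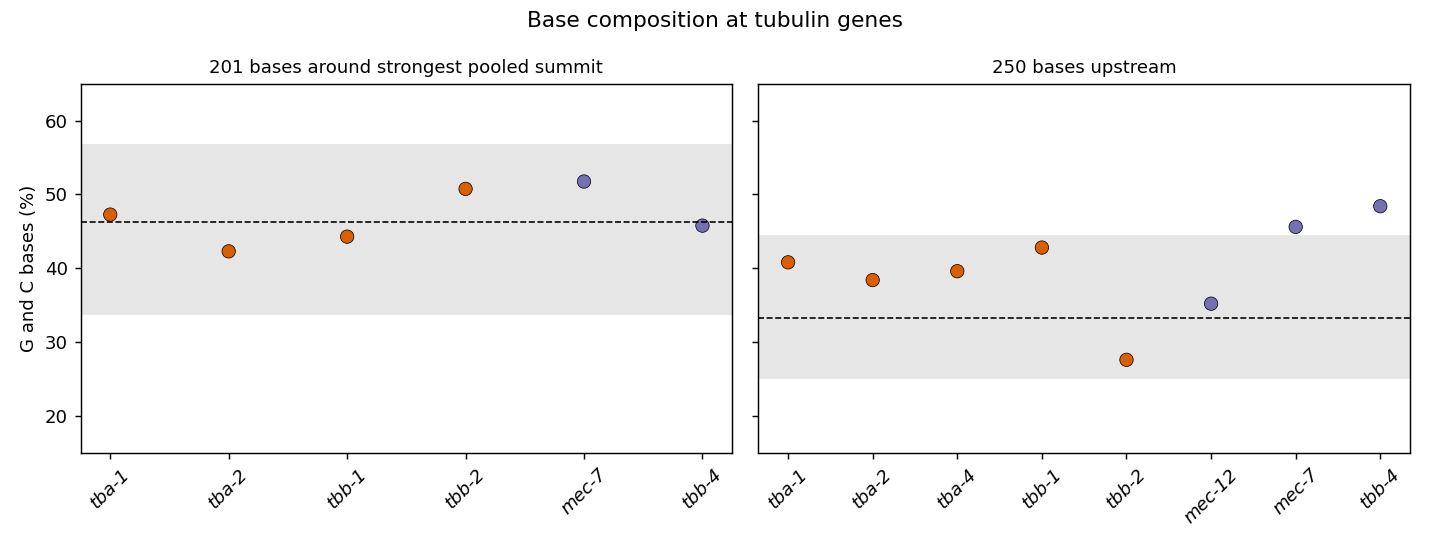
Share of G and C bases (%) in 201 bases around the strongest pooled summit (left, the 6 members that have one) and in 250 bases upstream of the 5′ end (right, all 8 members), orange for broadly expressed and purple for neuronal isotypes. The dashed line is the median and the grey band the 5th to 95th percentile, over 642 nuclear thresholded summits on the left and 19973 genes on the right. tba-2 and tbb-1 lie inside the band of ZFP-2 summits, and mec-7 and tbb-4 lie above the band of upstream windows.

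The isotype genes resemble each other in their coding parts. Coding sequences were 86.4% identical between tba-1 and tba-2 and 84.8% between tbb-1 and tbb-2. The longest exact run shared by tba-1 and tba-2 was 41 bp, and that shared by tbb-2 and mec-7 was 53 bp. The longest run that tbb-4 shared with any other member was 26 bp. Read length and the handling of reads with several matches are not stated in the labels, and whether reads of the weak calls inside exons could come from another isotype was not tested. The thresholded summits of tba-2 and tbb-1 lay upstream of the annotated genes.

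Genes that work with tubulin were then set beside the family, in lists chosen with earlier results of these data known. Among 8 other tubulin genes, 1 had a thresholded summit, against 3.29% of all genes. This was tbg-1, the gamma-tubulin that nucleates microtubules, with its summit 856 bp upstream, signal 105 and rank 411. The summit was shared with rpac-19, an RNA polymerase subunit gene, and was not among the 660 strongest peaks of replicate 1, where its rank was 942. With 500 bp upstream, by nearest 5′ end and among the stronger 330 peaks the count was 0, against 2.72%, 2.26% and 1.75% of all genes. The other 7, which were alpha isotypes tba-5 to tba-9 and beta isotypes ben-1 and tbb-6, had none. Their strongest pooled signals were 56.3 at tba-7, 35.1 at ben-1, the beta-tubulin targeted by benzimidazole drugs, and 25.2 at tba-5. tba-6, tba-8, tba-9 and tbb-6 had 0 pooled summits, so 4 of the 8 had one, against 40.5% of all genes.

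Tubulin folding and assembly genes had 4 of 20 with a thresholded summit against 3.29% of all genes. These were pfd-1, a prefoldin subunit that hands new tubulin to the chaperonin (signal 1920), and the chaperonin subunits cct-8 (242), cct-1 (193) and cct-7 (98.3). All 4 summits stood upstream, at 229 to 428 bp, and each was also in the window of another gene: F01G4.6, Y55F3AR.2, mig-5 and T10B5.4. Microtubule-associated proteins and motors had 4 of 32 (12.5%). Here klc-1, a kinesin light chain, had a signal of 139, spas-1, the microtubule-severing enzyme spastin, 105, dlc-1, a dynein light chain, 98.6, and klp-18, a kinesin of the meiotic spindle, 88.9. Of these, klc-1, dlc-1 and klp-18 shared their summit with let-70, nduf-2.2 and cogc-2. With each summit given to the nearest 5′ end, the folding list had 0 of 20 genes and the motor list 2 of 32, dlc-1 and spas-1, against 2.26% of all genes. With 500 bp upstream, the folding list had the same 4 genes and the motor list had 1, spas-1, against 2.72% of all genes.

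3 lists had no thresholded summit. These were touch receptor neuron genes (0 of 13), ciliated neuron genes (0 of 30) and tubulin modification enzymes (0 of 10), each against 3.29% of all genes. At this share, finding none in lists of these sizes says little. Their strongest pooled signals were 69.3 at mec-6, 73.4 at daf-19, the RFX factor of cilium genes, and 42.1 at mec-17, the alpha-tubulin acetyltransferase, which is also in the touch neuron list. With background calls included, 7 of 13, 18 of 30 and 7 of 10 had a pooled summit, against 40.5% of all genes. Among the 660 strongest peaks of replicate 1 alone, mec-6 of the touch neuron list and che-13 of the ciliated list each had a summit. The share of all genes there was 3.31%. In replicate 2 alone neither list had one, against 3.30% of all genes. With 2000 bp upstream che-13 had a thresholded summit, a window in which 4.09% of all genes had one. Over the 6 lists, 9 of 111 genes (8.11%) had a thresholded summit, 8 of them shared with another protein-coding gene. How often thresholded summits are shared among all genes was not counted.

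**Figure D4:**
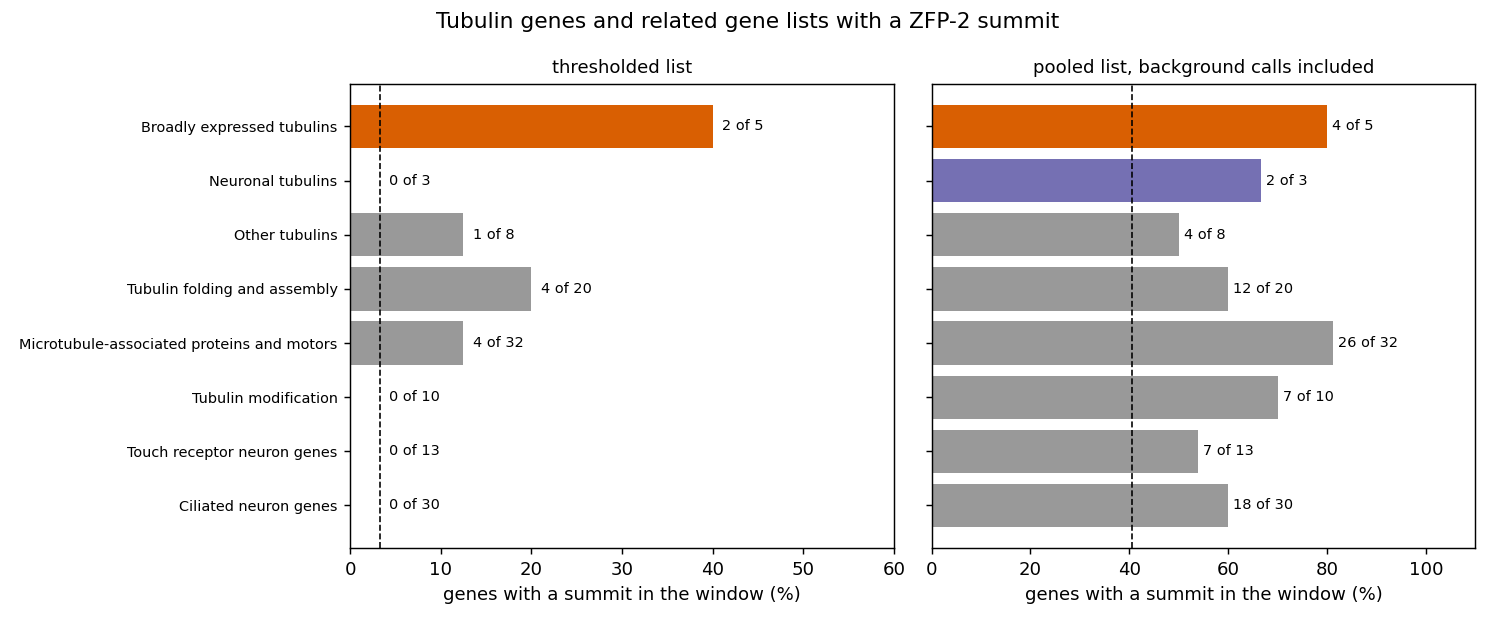
Share of genes (%) with a ZFP-2 summit in their window, in the thresholded list (left) and in the pooled list with background calls (right), for broadly expressed tubulins (orange), neuronal tubulins (purple) and the related gene lists (grey), with counts beside the bars. The dashed line is the share among all protein-coding genes, 3.29% on the left and 40.5% on the right. In the thresholded list 2 of 5 broadly expressed tubulins and 0 of 3 neuronal tubulins have a summit.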

How the data were processed

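The authors deposited headerless peak lists on ce11, the sequence of WBcel235: 1 per replicate, 1 from pooled replicates and 1 thresholded by irreproducible discovery rate (IDR), per the description file. The aligner, the caller and the IDR cut-off are not stated in them or in the labels. The signal is the authors' value and served for ranking. The deposited −log10 q-value is printed for tbb-2. The thresholded set equals the 660 strongest pooled peaks. Lists on ce10 were not used.

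Summits were start plus offset, printed 1-based. Windows ran from 1000 bp upstream of the 5′ ends to the gene end in Ensembl release 115, over 19973 nuclear protein-coding genes. Promoter windows ran from 1000 bp upstream to 200 bp downstream. A summit counted for every gene whose window held it. Coding identity, from a global alignment of the RefSeq coding sequences, took the place of protein identity, which was not analysed here. The symbols cofc-1 and hdac-6 were not found. Named genes were the members, genes sharing their summits, list genes with a thresholded summit and the 3 genes nearest tba-2 in rank. List genes with the strongest pooled signal and the other tubulins were named after their values were seen. Members and lists were chosen with earlier results of these data known, so no test was run. The gene calls were tested on planted summits. Python 3.11.15, numpy 2.4.6, pandas 2.3.3, Biopython 1.88 and matplotlib 3.10.9 were used.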

Additional observations from a re-analysis of the deposited data

How the results depend on the processing

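The count of tubulin genes with a thresholded summit, 2, fell to 1 among the stronger 330 thresholded peaks and to 1 when each summit went to the nearest 5′ end, which gave the tbb-1 summit to rib-2; the broadly expressed count was likewise 1 and 1. It was 3, with tba-1, with 2000 bp upstream (4.09% of all genes) or with any base of the peak in the window (3.73%). The neuronal count was 0 under every alternative run, and with either replicate alone the 2 genes were tba-2 and tbb-1. Without tba-4 in the group, 2 broadly expressed genes still had a summit.

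The 9 related list genes, of 111, became 5 with 500 bp upstream (2.72% of all genes), 4 among the stronger 330 peaks and 2 by nearest 5′ end. They became 11 with 2000 bp upstream (4.09%), adding che-13 and cls-2, and 11 with any base of the peak (3.73%), adding cls-2 and mei-2. With a replicate left out they were 8 in replicate 1 alone (3.31%) and 10 in replicate 2 alone (3.30%). In replicate 1 alone mec-6, che-13 and dnc-1 entered and tbg-1, cct-7, spas-1 and klp-18 dropped out, and in replicate 2 alone unc-104 entered. The share of all genes fell from 3.29% to 1.75% with the stronger 330 peaks, and was 2.26% by nearest 5′ end, a share added after seeing the data. No paired analysis was possible because both samples belong to 1 group. Unknown depth, 2 replicates and the unused control limit what a weak or missing call can show.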
